A study of Rattus norvegicus with 38 samples.

Results

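The regions described here were 665 H3K27ac peaks of the rat motor cortex, each of them a single unbroken interval in the motor cortex peak list but met by 3 or more separate intervals in the list of the substantia nigra (SN). They were chosen by the measured widths and positions of the intervals in both lists, and these values are therefore given as a description. A member lay on chromosomes 1 to 20, was under 10000 bp wide and shared at least 1 bp with each of at least 3 SN intervals. They made up 0.844% (95% Wilson interval 0.783 to 0.911) of the 78767 motor cortex peaks within the same chromosome and width limits, out of 80765 motor cortex peaks in all. The SN list held 70744 intervals. That is far more than the study describes for SN, while the motor cortex list holds close to the number described. The narrowest interval was 139 bp in the SN list and 200 bp in the motor cortex list. SN intervals under 200 bp thus counted as pieces, although the motor cortex list held none so narrow. Which filters each list passed is not given in the sources used here.

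The peaks came from chromatin immunoprecipitation followed by sequencing (ChIP-seq) of male Lewis rats aged 8 to 10 months. Rats received rotenone, a pesticide that blocks mitochondrial complex I, intraperitoneally at 2.8 mg/kg each day for 21 days, or vehicle, and tissue was taken 24 h after the last injection. Each region was profiled in 5 rotenone and 4 vehicle rats, and the SN samples carried the tissue label ventral midbrain. The controls are called PBS in one label and Miglyol in another, while the methods describe DMSO in Miglyol as the carrier of rotenone. The methods also speak of dosing to a behavioural endpoint. All 4 input runs, the unprecipitated DNA used as background, were of cortex. Rotenone and vehicle reads of a region were pooled before peaks were called. The lists therefore held no value for a single rat, no peak height and no read count, so that no rotenone comparison, replicate error or test was possible, and every value below describes 2 pooled lists. The tissue identity of the lists could not be checked against marker genes, since no annotation of all peaks in their genome build, mRatBN7.2, was used here.

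H3K27ac is the acetylation of a lysine on the tail of histone H3. It marks active promoters and enhancers, where it sits on the nucleosomes that flank the open DNA bound by transcription factors. Neighbouring active elements often lie close enough to be called as a single broad interval, and broad domains of this mark are known at genes that define the identity of a cell type. A peak caller joins or splits such a domain according to the local signal, the depth of reading and the largest gap it bridges.

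Gene names were available for some members. The study annotated in its supplement those peaks that passed its rotenone test, and a member was named where such a peak had the same coordinates as the member or as an SN interval overlapping it. The names thus covered a selected subset: 34 members lay at or within the promoter range of a gene's start site, 25 by a motor cortex peak and 11 by an SN interval, and 105 more were assigned to the nearest start site at a distance. The other members have no name here. The directions and sizes of the study's test were not used.

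The promoters of 6 named genes are shown because their members stood at the extremes among the members that held the start site and had a promoter sequence. Homer1 and Kcnc1 had the least of their motor cortex peak covered by SN intervals, Plpp3 and Agap1 the most, and Maf and Nr2e1 the largest number of SN intervals. The sequences are the 250 bases before the annotated start in RefSeq, assembly GRCr8, printed 5′ to 3′ on the strand of the gene. Capitals mark CG dinucleotides, the sites of DNA methylation, which are dense in many promoters. These positions are of another build than the peaks, and the start used by RefSeq may belong to another transcript than the one in the study's annotation.
Homer1 (GRCr8 chr2:26278762-26279011, plus strand): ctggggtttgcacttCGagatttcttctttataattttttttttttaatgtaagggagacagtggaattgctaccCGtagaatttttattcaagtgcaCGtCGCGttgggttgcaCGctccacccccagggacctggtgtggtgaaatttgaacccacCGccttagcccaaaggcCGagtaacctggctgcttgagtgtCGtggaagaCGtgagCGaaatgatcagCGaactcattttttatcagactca
Kcnc1 (GRCr8 chr1:106038997-106039246, plus strand): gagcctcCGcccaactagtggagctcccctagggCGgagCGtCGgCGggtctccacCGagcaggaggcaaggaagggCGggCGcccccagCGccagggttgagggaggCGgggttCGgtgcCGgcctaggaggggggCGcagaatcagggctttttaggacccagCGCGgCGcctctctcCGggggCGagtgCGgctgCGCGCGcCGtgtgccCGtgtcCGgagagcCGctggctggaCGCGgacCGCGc
Plpp3 (GRCr8 chr5:125155750-125155999, plus strand): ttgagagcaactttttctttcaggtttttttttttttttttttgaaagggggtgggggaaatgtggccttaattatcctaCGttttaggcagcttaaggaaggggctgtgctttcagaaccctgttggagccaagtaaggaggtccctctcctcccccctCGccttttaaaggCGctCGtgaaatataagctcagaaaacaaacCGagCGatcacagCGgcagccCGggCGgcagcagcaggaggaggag
Agap1 (GRCr8 chr9:97487156-97487405, plus strand): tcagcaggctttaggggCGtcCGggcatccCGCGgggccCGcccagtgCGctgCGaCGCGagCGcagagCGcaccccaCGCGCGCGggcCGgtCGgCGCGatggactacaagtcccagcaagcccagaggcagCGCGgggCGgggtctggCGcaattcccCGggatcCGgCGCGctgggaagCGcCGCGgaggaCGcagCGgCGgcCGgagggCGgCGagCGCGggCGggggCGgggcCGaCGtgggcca
Maf (GRCr8 chr19:60621357-60621606, minus strand): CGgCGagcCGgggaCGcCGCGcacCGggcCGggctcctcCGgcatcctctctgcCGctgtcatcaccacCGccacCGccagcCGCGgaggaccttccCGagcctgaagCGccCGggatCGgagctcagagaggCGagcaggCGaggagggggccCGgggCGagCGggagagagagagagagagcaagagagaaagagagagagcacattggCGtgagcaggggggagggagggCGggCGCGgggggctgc
Nr2e1 (GRCr8 chr20:47653465-47653714, minus strand): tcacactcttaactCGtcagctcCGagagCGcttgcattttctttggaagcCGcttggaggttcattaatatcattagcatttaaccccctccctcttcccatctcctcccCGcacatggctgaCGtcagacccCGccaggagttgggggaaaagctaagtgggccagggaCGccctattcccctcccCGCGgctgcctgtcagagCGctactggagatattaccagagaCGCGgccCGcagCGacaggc

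Among the 34 named genes, 23 had a promoter sequence in the RefSeq table. For 16 of these the start site lay inside the member or, at Bmf, Midn and Pcdh20, inside an SN interval overlapping it. These 16 promoters held a median of 10.5 CG dinucleotides in 250 bases, from 2 at Evi2b to 46 at Gnao1. The median over all 33465 promoters of the table was 5, and 13 of the 16 were above it. The 16 were named through H3K27ac peaks that passed the study's rotenone test, while the table was not limited to such promoters. Promoters at motor cortex peaks outside the members were not counted. The Kcnc1 promoter held 30 CG and the Homer1 promoter 12, and both members were little covered in SN. The Agap1 promoter held 42 and the Plpp3 promoter 9, and both members were almost fully covered. Whether the number of CG goes with the covered share was not tested. The letters TATAAA, searched on both strands, were found in 4 of the 16 promoters and in 12.93% of all promoters. The letters GGGCGG were found in 6 of the 16 and in 30.47% of all. TGACGTCA, the full site of the cAMP response element, was found in 2 of the 16, at Nr2e1 and Gnao1, and in 1.587% of all. GGGCGG and TGACGTCA each contain a CG, so that these counts overlap with the count of CG. The motifs were picked with the gene names known, and the counts are a description of letters in these windows.

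Most members met the lowest number of SN intervals that the rule allows. There were 549 members with 3 SN intervals, 96 with 4, 17 with 5 and 3 with 6. Within the same chromosome and width limits, 3772 motor cortex peaks met 2 SN intervals, 38614 met 1 and 35716 met none. The members took up 2131 different SN intervals, which were 3.01% of the SN list. Of these, 3 were shared by a pair of members and 99 also reached into another motor cortex peak. Of the SN intervals, counted once for each member they met, 81.9% lay wholly inside the motor cortex peak. In 348 members every SN interval lay inside, in 247 the SN intervals ran past 1 end of the motor cortex peak and in 70 past both ends.

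The members were wide peaks cut into pieces of ordinary SN width. Their median width was 5712 bp (range 1283 to 9983), where all motor cortex peaks within the limits had a median of 1233 bp. The SN intervals that met them had a median width of 925 bp, beside 994 bp over the whole SN list. Width is part of the rule, and a wide peak has more room for 3 intervals. Members made up 0.0210% of the motor cortex peaks under 2000 bp, 0.906% of those from 2000 to under 4000 bp and 5.64% of those from 4000 to under 6000 bp. The share was 11.5% from 6000 to under 8000 bp and 21.5% (18.4 to 24.9) from 8000 bp to the limit. These intervals cover counting error only, and peaks of 1 list are not independent of each other.

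**Figure D1:**
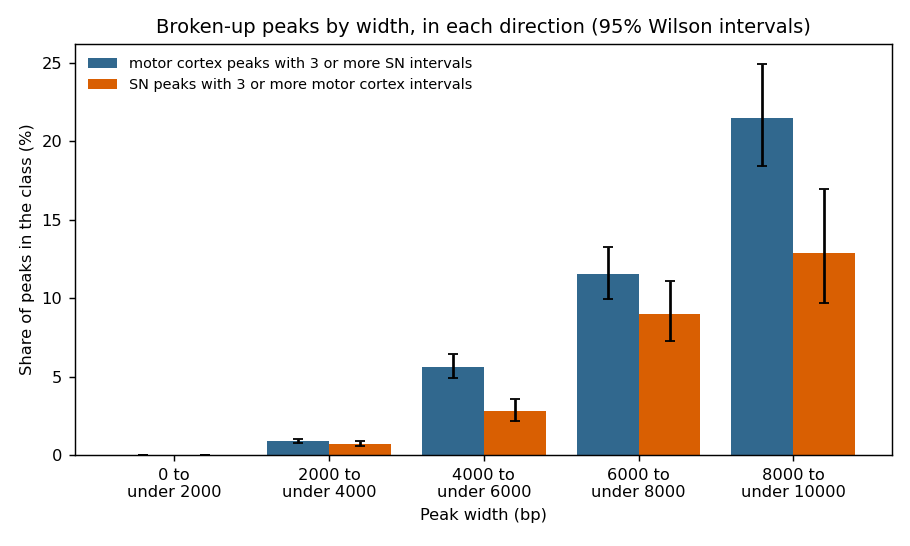
Share of peaks that met 3 or more intervals of the other region (y axis, %) by peak width (x axis, bp), for motor cortex peaks met by SN intervals (blue) and SN peaks met by motor cortex intervals (orange). Error bars are 95% Wilson intervals, and in the widest class the shares are 21.5% and 12.9%.

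The SN intervals together covered 65.8% of the 3862.5 kb that the members span. Another 19.6% lay in gaps between SN intervals and 14.7% in uncovered edges. The covered share of a single member had a median of 68.5% (quartiles 53.0 and 82.1, range 16.5 to 96.3). It was under 50% in 137 members and over 80% in 193. In 135 members 1 SN interval alone covered more than 50% of the motor cortex peak. A larger number of SN intervals did not go with a larger covered share, the medians being 69.2% for 3 intervals, 67.2% for 4, 63.1% for 5 and 66.8% for 6. In bulk tissue, fewer cells of a type that carries the mark and less of the mark in each cell cannot be told apart. The study states that the motor cortex was read more deeply than the SN. The lists hold no depth, and its part in the uncovered stretches was not tested.

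**Figure D2:**
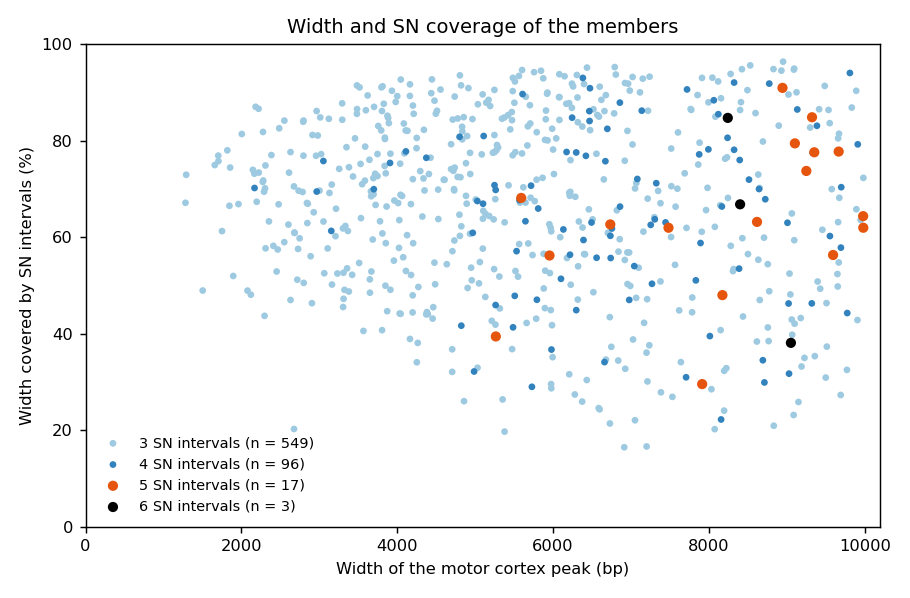
Each point is 1 of the 665 members, with the width of the motor cortex peak on the x axis (bp) and the percentage of it covered by SN intervals on the y axis, coloured by the number of SN intervals. Covered shares run from 16.5% to 96.3%, and the members with 5 or 6 intervals are all 5266 bp or wider.

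Set beside motor cortex peaks of like width that met 1 or 2 SN intervals, the members had lower median coverage in every width class. Peaks that met none, and so had no coverage, were left out of this comparison. They made up 52.6% of the motor cortex peaks under 2000 bp and 13.5% of those from 8000 bp to the limit. From 8000 bp to the limit the median was 64.3% in members, 80.7% in peaks with 2 SN intervals and 98.7% in peaks with 1. From 2000 to under 4000 bp the medians were 69.8%, 78.3% and 89.7%. The number of intervals chose the members and bears on the covered share, so that no test was made. Along the members of 4000 bp or wider, the outermost twentieths were covered in 47.2% and 44.4% of members, and the inner ones between 61.1% and 73.0%. In peaks of the same width with 2 SN intervals the outermost shares were 46.2% and 44.6% and the highest 76.6%. In those with 1 SN interval the outermost shares were 55.0% at each end and the highest 82.8%. The uncovered part of a member was thus spread along its length and was largest at the ends. At the ends, peaks with 2 SN intervals were covered about as often as members.

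**Figure D3:**
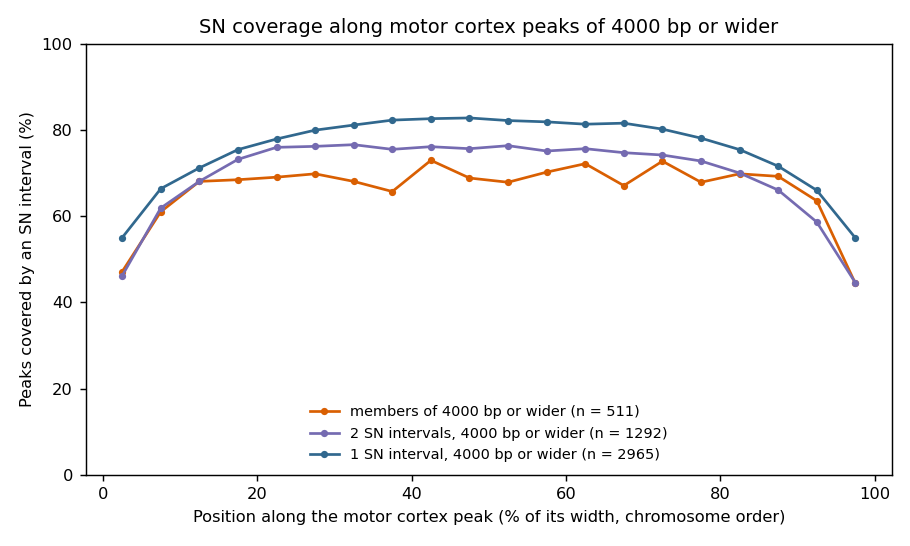
Percentage of motor cortex peaks from 4000 to under 10000 bp covered by an SN interval (y axis) at 20 successive positions along the peak (x axis, % of width in chromosome order), for members, for peaks with 2 SN intervals and for peaks with 1. The member curve starts at 47.2%, stays between 61.1% and 73.0% and ends at 44.4%.

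Homer1 had the lowest covered share of the named members at start sites. It encodes a scaffold of the postsynaptic density that binds metabotropic glutamate receptors. Its member, at chr2:24535909-24545600, was 9692 bp wide, and its 3 SN intervals of 281, 1813 and 552 bp covered 27.3% of it. The first SN interval began 4198 bp into the peak, and the gaps were 1786 and 544 bp. Most of the length called in SN at Homer1 thus lay in the part of the peak with the higher coordinates.

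Kcnc1, a voltage-gated potassium channel of fast-spiking neurons, had a member at chr1:96902478-96908472 that was covered to 35.1%. Its SN intervals were 532, 262 and 1312 bp wide, with a gap of 1749 bp before the last. Ntrk2, the receptor for brain-derived neurotrophic factor, had a member of 8634 bp at chr17:5862085-5870718 whose SN intervals of 430, 1338 and 4531 bp covered 73.0%. A second member assigned to Ntrk2, at chr17:5788938-5795616 in the class exon, was covered to 34.6%. The SN list thus filled more of the member at the start site of Ntrk2 than of the member away from it.

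Gnao1, the alpha subunit of a G protein abundant in brain, had 83.6% of its 9551 bp covered, of which a single SN interval of 6281 bp made up the larger part. Pex5l, which binds the channels of the hyperpolarization-activated current, was likewise filled mainly by 1 SN interval, of 6921 bp, and reached 89.5%. Pcdh20, a protocadherin, was at 76.2% and Nrp2, a semaphorin co-receptor, at 67.9%. Ablim1, an actin-binding LIM protein, was at 45.3%. These 5 members ran from 5259 to 9551 bp in width, and each met 3 SN intervals.

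Among the transcription factor genes, Maf and Nr2e1 had the most pieces. Maf, a basic leucine zipper factor, had a member of 9594 bp at chr19:43703577-43713170 with 5 SN intervals of 809, 1751, 243, 1073 and 2091 bp. The SN intervals covered 56.3% of it, and none began before position 2385 of the peak. Nr2e1, the orphan nuclear receptor of neural stem cells also known as Tlx, had 5 SN intervals of 1365, 433, 353, 544 and 1227 bp in a member of 8174 bp at chr20:46065696-46073869. They covered 48.0% and were separated by gaps of 140 to 410 bp, so that much of the uncovered length lay at the edges.

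Hic1, a zinc finger repressor, had 4 SN intervals over 50.3% of its peak, with gaps of 1043, 1126 and 534 bp. Scrt2, a repressor of the Snail family expressed in neurons, was covered to 43.6%. Its widest gap of 2540 bp was the widest among the 34 members named at start sites. Members assigned to a start site at a distance had gaps of up to 4571 bp. Zbtb20, a zinc finger factor, was covered to 86.5%, Ebf1, a helix-loop-helix factor, to 84.3%, and Foxq1, a forkhead factor, to 78.0%. Foxq1 had the narrowest named member, at 1820 bp. Csrnp1, a nuclear protein with a cysteine- and serine-rich domain, reached 93.0% with SN intervals of 2117, 551 and 4828 bp.

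Cx3cr1, the fractalkine receptor that marks microglia in brain, had a member of 7116 bp at chr8:119792314-119799429 covered to 90.0%. Its SN intervals were 4478, 1475 and 4356 bp wide, and the outer pair ran past the motor cortex peak at both ends. A second member assigned to Cx3cr1, between genes at chr8:119769087-119774736, was covered to 89.1%. Bin2, a BAR-domain protein of blood and microglial cells, was covered to 43.1% by SN intervals of 594, 529 and 798 bp. Evi2b, a membrane protein of leukocytes, was covered to 53.0%, with a gap of 2478 bp after its first SN interval of 182 bp. Without this SN interval, narrower than any motor cortex peak, the member would have met fewer than 3. The same held at other members, among them Ablim1 with an SN interval of 183 bp and Dnmt3a with 1 of 188 bp.

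Plpp3, a phosphatase of lipid mediators, had the highest covered share of all 665 members. Its peak at chr5:119926696-119935648 was 8953 bp wide, and SN intervals of 3058, 1991 and 4473 bp left gaps of 150 and 155 bp, for a covered share of 96.3%. Agap1, a GTPase-activating protein of membrane traffic, had 2 neighbouring members that shared 1 SN interval of 4524 bp. The member that held its start site, at chr9:90185718-90192316, was covered to 91.2% and its neighbour to 91.8%. At these members the SN list differed from the motor cortex list by short gaps rather than by missing length.

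Cfap20, a protein of cilia, had the most SN intervals of the named members. Its 6 SN intervals measured 1546, 178, 263, 489, 2042 and 4218 bp and covered 84.7% of the 8243 bp at chr19:9608871-9617113. Dio2, the deiodinase that activates thyroid hormone in astrocytes, had 4 SN intervals and 63.7%, and Gpr21, an orphan receptor, had 5 and 56.2%. Bmf, a pro-apoptotic member of the Bcl family, was covered to 89.7%, Pik3r1, a regulatory subunit of phosphoinositide kinase, to 84.1%, and Pnp, purine nucleoside phosphorylase, to 68.1%. Over the 34 named members the median covered share was 77.1% (27.3 to 96.3), beside 68.1% for the other 631. Their median width was 7593.5 bp beside 5646 bp. The study's selection chose the named members, and the difference was not tested.

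**Figure D4:**
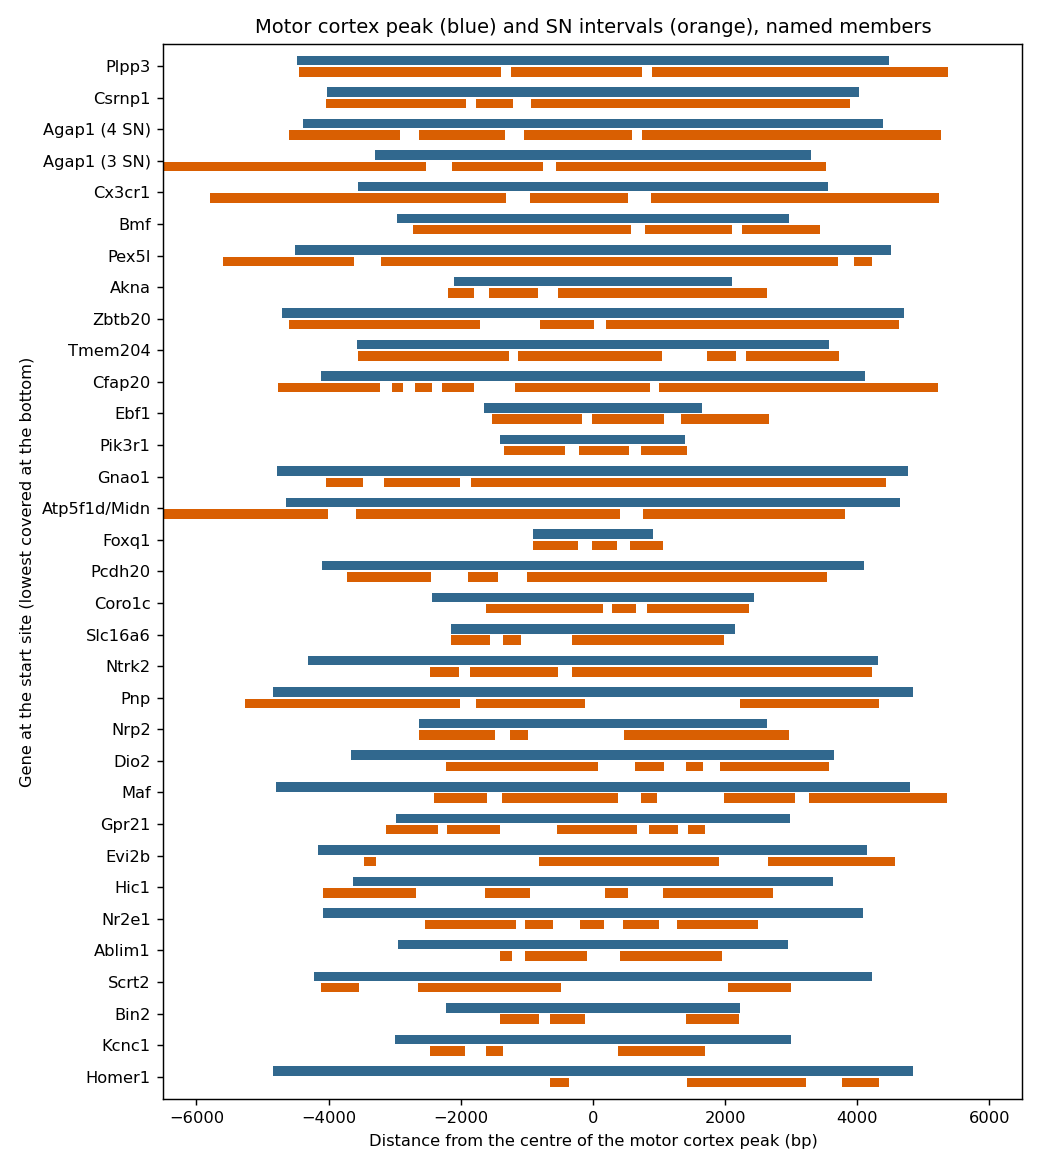
Motor cortex peak (blue) and SN intervals (orange) for named members, by distance from the centre of the motor cortex peak (x axis, bp, chromosome order), sorted by covered share from Homer1 (27.3%) at the bottom to Plpp3 (96.3%) at the top. SN intervals that run beyond the plot are cut at its edge.

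Where the SN list itself was annotated at a start site, the start site could be placed in 1 of the pieces. In Pcdh20 it lay in the last of 3 SN intervals, which made up 55.3% of the member. In Slc16a6, a transporter of the monocarboxylate family, it also lay in the last of 3, with 53.7%. In Pex5l it lay in the middle interval with 76.7%, and in Akna, an AT-hook protein, in the last with 62.4%. In Gpr21 it lay in the second of 5 intervals, which held 13.3% of the member, in Bmf in the last of 3 with 11.9%, and in Csrnp1 in the first of 3 with 26.2%. In LOC690120 it lay in the middle interval with 59.5%. In Midn it lay in the first of 3 intervals, which was 17938 bp wide and made up 6.82% of the member. The start site of Midn itself may thus lie outside the motor cortex peak. The intervals of Bmf, Akna and Csrnp1 also ran past the motor cortex peak, so that the same may hold there. The interval with the start site thus made up from 6.82% to 76.7% of these 9 members.

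Away from start sites, 28 members had a host gene given by the annotation, 18 in an intron and 10 in an exon. Their covered shares had a median of 71.1% (26.9 to 94.5). The widest gap of any member lay in an intron of Ank3, which encodes ankyrin-G of the axon initial segment. In that member, at chr20:19043946-19051477, SN intervals of 236, 204 and 1587 bp left a gap of 4571 bp and covered 26.9%. Map1b, a microtubule-associated protein of axons, held an intronic member with 4 SN intervals and 70.3%. Dnmt3a, a DNA methyltransferase, was at 50.5%, and Srcin1, a regulator of Src kinase at synapses, was at 91.4%. Ilrun and Fbxo21, both in the class exon, were at 94.0% and 94.5%.

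Some genes had a pair of members assigned to them, and the covered shares of a pair were close in some cases and apart in others. A pair between genes near Klf13, a Krüppel-like factor, were at 61.9% and 95.1%. A pair at Sspn, a protein of the dystrophin complex, were at 73.4% and 93.2%, a pair at Srgap2, which shapes neuronal spines, at 86.2% and 71.2%, and a pair near Ttc7b at 58.2% and 72.6%. The members at and near Coro1c, an actin-binding coronin, lay close together at 75.3% and 75.8%, as did the pairs at Agap1 and Cx3cr1 given above, while the pair at Ntrk2 lay apart. No pairs of unrelated members were compared.

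Names at start sites existed only where a peak had passed the study's rotenone test, so that an unnamed member may still hold a start site. Whether low coverage goes with distance from start sites was not tested. The least covered members were not among the members named at start sites. The lowest, at chr14:6532843-6539756, was assigned to Mapk10, a stress-activated kinase of neurons, in the class intron. Its SN intervals of 359, 255 and 525 bp left a gap of 4044 bp and covered 16.5% of 6914 bp. The next, at chr4:118518831-118526031, had 16.6%, with SN intervals of 274, 366 and 558 bp in the middle of the peak and gaps of only 631 and 222 bp. A member at chr6:35088840-35096914, assigned to Cyria, had 20.2%, and its first SN interval began 5447 bp into the peak. Low coverage thus came as wide inner gaps in some members and as long uncovered edges in others. Flrt2, an adhesion protein of axon guidance, had 4 SN intervals and 22.2%.

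The limits of the rule fell among similar peaks. The widest member, at chr20:6567706-6577688, was 9983 bp wide, with 3 SN intervals and 72.3% covered, and its nearest start site was that of Armc12. Just outside the width limit lay a peak of 10001 bp at chr8:99953056-99963056 with 3 SN intervals and 60.1% covered. Just outside the limit on the number of intervals, the widest peak with 2 SN intervals, at chr9:14715637-14725634, was 9998 bp wide and was covered to 39.1%. The narrowest member, of 1283 bp at chr15:37161825-37163107, took 172, 575 and 114 bp from its 3 SN intervals. In a member at chr13:44320813-44330794 the fifth SN interval shared 4 bp with the motor cortex peak. Without the width limit, 236 more peaks on these chromosomes met 3 or more SN intervals.

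Most of the breaks inside the members were short. The 1469 gaps between neighbouring SN intervals had a median of 269 bp (range 140 to 4571). Of these, 1042 (70.9%) were under 500 bp and 194 (13.2%) were over 1000 bp. When SN intervals up to 500 bp apart were joined, 336 members were left with 1 SN interval, 236 with 2 and 93 with 3 or more. When the distance was raised to 1000 bp, 24 kept 3 or more. The description of the members as broken up in SN therefore rested on gaps of up to 500 bp for 572 of the 665. In these counts only the SN list was joined. With both lists joined across 500 bp, 150 motor cortex regions met 3 or more SN intervals. In the opposite direction, 44 SN regions met 3 or more motor cortex intervals. Such joined regions are not the members themselves.

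The peak names allowed a further look at these gaps. Names in each list carry numbers that run in order of position, and numbers are missing where the list skips from one peak to the next by more than 1. What removed the missing numbers is not given in the sources used here. Inside members, 235 gaps (16.0%) skipped at least 1 number and 289 numbers were missing in all, at most 3 in a single gap. These gaps fell in 205 members. Counting each missing number as a further SN interval would raise the members with 5 or more from 20 to 108. The most missing numbers in a member were 5, found in the member assigned to Gfod1, covered to 32.5%, and in a member at chr10:82523927-82532561, covered to 55.3%. The second of these was named after its values were seen.

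Whether a gap skipped a number went with its width. None of the 813 gaps under 300 bp inside members did so, while 40.3% (34.3 to 46.7) of the 233 gaps from 500 to under 1000 bp did. The same share was 33.0% (28.8 to 37.5) inside motor cortex peaks with 2 SN intervals and 26.2% over the other gaps of the SN list. From 1000 to under 2000 bp the shares were 66.7%, 64.7% and 51.0%. From 2000 to under 4000 bp they were 82.2% (68.7 to 90.7) of 45 gaps, 66.3% (55.6 to 75.5) of 83 gaps and 62.5%. In this class the intervals of members and of peaks with 2 SN intervals overlap. A missing interval needs room, and in the SN list the narrowest peak with a narrowest gap on each side takes 419 bp, beside a narrowest skipping gap of 433 bp in the members. No number was missing in a narrower gap of a member.

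**Figure D5:**
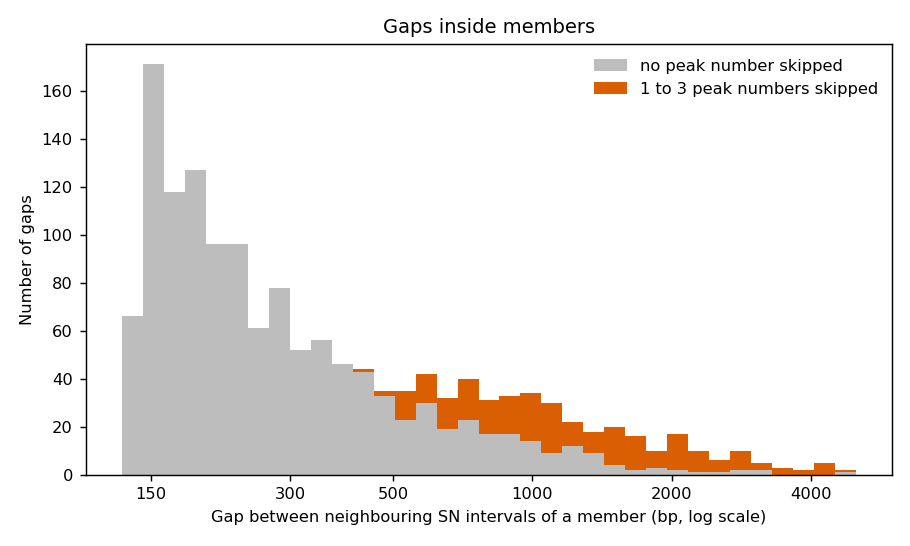
Number of gaps between neighbouring SN intervals of a member (y axis) by gap width (x axis, bp, log scale), for gaps that skip no peak number (grey) and gaps that skip 1 to 3 numbers (orange). Of the 1469 gaps 235 skip a number, and the narrowest of these is 433 bp.

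The opposite case was also counted. On the same chromosomes and under the same width limit, 274 of 69243 SN peaks (0.396%) met 3 or more motor cortex intervals. Their median covered share was 84.1%, beside 68.5% in the members, and their median gap was 162 bp, beside 269 bp. A number was skipped in 8.25% of their 570 gaps. The lists differed in the narrowest gap they contain, 140 bp in SN and 74 bp in motor cortex, so that gaps of 74 to 139 bp could count as breaks in the motor cortex list only. With motor cortex intervals joined across gaps of up to 139 bp, 104 reverse cases and 786 members were found. Reverse cases were seen in 12.9% (9.73 to 16.9) of SN peaks from 8000 to under 10000 bp, the class in which 21.5% of motor cortex peaks were members. Of the members, 27 had a reverse case within 50 kb, and no such count was made for other motor cortex peaks.

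The members lay among other peaks. The nearest other motor cortex peak was at a median distance of 661 bp. For members of 4000 bp or wider it was 692 bp, beside 880 bp for the other motor cortex peaks in that width range. Another member lay within 50 kb of 150 members (22.6%), and a motor cortex peak of 10000 bp or more within 50 kb of 138 (20.8%). These shares were not counted for other motor cortex peaks, so that no clustering of members can be read from them. Chromosome 15 had the highest share of members, 38 of 2516 motor cortex peaks or 1.51% (1.10 to 2.07), and chromosome 14 the lowest, 13 of 2836 or 0.458% (0.268 to 0.783). Over all chromosomes from 1 to 20 the share was 0.844%, and these 2 were picked as the extremes. The numbers of SN peaks for each motor cortex peak were nearly equal on the 2 chromosomes, 0.906 and 0.902. Peak widths were not compared between chromosomes, and the difference was not tested.

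Marker lists of brain cell types and of synaptic and activity-regulated genes were compared with the gene names at start sites. Of the 12 microglial genes only Cx3cr1 was named, and of the 23 genes of the postsynaptic density and glutamate receptors only Homer1. None was named of 19 genes of cortical excitatory neurons, 12 of GABAergic interneurons, 13 of dopaminergic and midbrain cells, 9 of astrocytes, 10 of oligodendrocytes and 18 activity-regulated genes. Since names existed for 34 members only, a gene that was not named may still have had a member.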

How the data were processed

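H3K27ac ChIP-seq covered 34 runs of 18 libraries (9 rats in each region) with 4 input runs. Per the labels and methods, the authors used FastQC 0.11.9, Trim Galore 0.6.7, Bowtie2 2.4.4 (mRatBN7.2), Picard 2.6.0 and MACS2 2.2.7.1 on reads pooled per region. The deposited lists hold start and end positions in bp only, with no count or score, so depth and replicate error are unknown. The SN list holds far more peaks than the study describes and the motor cortex list close to the number described. The filter behind this is not given in the sources used here and bears on every count of SN intervals.

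Starts were read as counting from 0 and are printed counting from 1. Overlaps, gaps and covered lengths were computed with Python 3.11.15, pandas 2.3.3 and numpy 2.4.6, tested on simulated data and against bedtools 2.31.1, which gave the same number of overlaps for each motor cortex peak. Wilson intervals (95%) cover counting error only. Named members were the 5 at each extreme of interval number, covered share and width, the widest gap, those at the limits of the rule and those with a gene. Names came from the study's supplementary annotation, read from page images and kept only where they match a RefSeq symbol. The members and lists were chosen with earlier results of these data known. No columns of per-sample values were left out.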

Additional observations from a re-analysis of the deposited data

How the results depend on the processing

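The number of members, 665, stayed within 1.5 times when at least 100 bp or 50% of each SN interval had to lie inside (644 and 570). It also did so when the width limit was dropped (901) and in alternatives chosen after seeing the data. The number was 637 without SN intervals under 200 bp, the narrowest motor cortex width, and 786 with motor cortex peaks joined across 139 bp. It fell to 93 with SN intervals joined across 500 bp, to 24 across 1000 bp, to 361 with SN intervals of 500 bp or more, to 255 with a width limit of 5000 bp and to 116 with 4 or more intervals. The median covered share of 68.5% was 63.8% with SN intervals of 500 bp or more and lay between 66.9% and 69.9% otherwise. The median gap of 269 bp was 229 bp with the width limit of 5000 bp and 278 bp with the 50% overlap. The 274 reverse cases were 219 with the 50% overlap, 2 with motor cortex intervals joined across 1000 bp and 104 across 139 bp, the last also chosen after seeing the data. The share of gaps that skip a number was 16.0%, and 17.0% with the 50% overlap. Fewer intervals after joining, fewer peaks under a lower limit and fewer intervals after leaving out narrow ones follow from how these alternatives are built. No paired analysis was possible because the lists pool all rats of a region. Nor could a replicate be left out.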
